A study of Homo sapiens with 14 samples.

Results

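The 9 genes described here are SAA1, SAA2, LCN2, C3, CFB, CP, SLPI, PI3 and PDZK1IP1. All but PDZK1IP1, a membrane protein of epithelia listed with them, encode acute phase, complement or epithelial defence proteins. The 9 genes were taken by symbol from the expression tables of prostate cancer cell lines. They are 9 of the 24199 features listed for DU145 cells and 9 of the 44591 genes listed for LNCaP cells. The set was chosen by the FPKM of the DU145 shCON and shPAX6 libraries and the counts of the LNCaP libraries, which were known when it was put together, so the changes of these 9 genes are given as a description with no test.

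The study asked what the transcription factor PAX6 does as prostate cancer cells lose their androgen dependence and take on neuroendocrine features. DU145 cells, which were derived from a prostate cancer metastasis and lack androgen receptor activity, carried a lentiviral short hairpin RNA that was either non-targeting (shCON, 3 libraries, genotype labelled WT) or directed at PAX6 (shPAX6, 3 libraries, genotype labelled PAX6 knockdown), and stable lines were selected with puromycin. LNCaP cells, an androgen-sensitive prostate cancer line, were sequenced untreated (1 library, genotype labelled WT) and as LNCaP-ENZ cells kept in 20 µM enzalutamide, an androgen receptor antagonist, for 30 days according to the text of the series (1 library). The labels do not say which PAX6 hairpin the shPAX6 libraries carry or whether the 3 libraries of a group came from separate cultures, so a p-value here measures only the spread between these libraries.

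Acute phase proteins are secreted mainly by the liver when IL-1, IL-6 and TNF signal through NF-kappaB, C/EBP and STAT3, and epithelia make several of them locally under the same cytokines and IL-17. SAA1 and SAA2 are apolipoproteins of high density lipoprotein that attract leukocytes, LCN2 binds bacterial siderophores and so withholds iron, and CP is the copper-carrying ferroxidase of plasma. C3 is the protein on which all complement pathways converge, and CFB supplies the protease of the alternative pathway convertase that cleaves it. SLPI and PI3 (elafin) are small inhibitors of neutrophil elastase with WAP domains, and PDZK1IP1 (MAP17) is a membrane protein of epithelia that binds the scaffold PDZK1.

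The stretches before the start sites of LCN2, CFB and PDZK1IP1 are shown because these members had lower levels in every shPAX6 library and because acute phase genes are classically controlled from sites close to the promoter. They were taken from RefSeq on GRCh38.p14, whose promoter table held 3 of the 9 members. Each is the 250 bases before the start site, written 5′ to 3′ on the strand of the gene, at chr9:128149203-128149452 (plus strand) for LCN2, chr6:31945845-31946094 (plus strand) for CFB and chr1:47190037-47190286 (minus strand) for PDZK1IP1. Capitals mark matches on either strand to a STAT motif (TTCNNNGAA), a C/EBP motif (TTNNGNAA), an AP-1 motif (TGANTCA) and a kappaB-like pattern (GGGNNNNNCC), and overlapping matches run together.
LCN2: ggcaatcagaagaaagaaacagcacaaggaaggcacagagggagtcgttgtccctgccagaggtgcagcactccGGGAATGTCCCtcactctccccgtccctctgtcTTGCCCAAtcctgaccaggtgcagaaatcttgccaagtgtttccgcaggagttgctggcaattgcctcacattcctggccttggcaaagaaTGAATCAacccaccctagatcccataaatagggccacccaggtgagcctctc
CFB: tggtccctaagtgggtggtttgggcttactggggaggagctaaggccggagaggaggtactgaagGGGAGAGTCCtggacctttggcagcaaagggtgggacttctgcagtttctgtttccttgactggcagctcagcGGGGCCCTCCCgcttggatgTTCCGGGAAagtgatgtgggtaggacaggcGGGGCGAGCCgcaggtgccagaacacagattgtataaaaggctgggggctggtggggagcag
PDZK1IP1: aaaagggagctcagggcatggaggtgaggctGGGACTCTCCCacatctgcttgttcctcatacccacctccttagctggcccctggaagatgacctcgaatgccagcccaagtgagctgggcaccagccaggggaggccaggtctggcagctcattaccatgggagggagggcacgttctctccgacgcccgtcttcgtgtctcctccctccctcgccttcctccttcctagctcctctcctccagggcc

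All 3 stretches held the kappaB-like pattern, which 53.7% of the 27305 promoters of the table also hold over the same length. The stricter kappaB consensus, which 5.05% of the promoters hold, was matched in LCN2 at -175 to -166 and in PDZK1IP1 at -219 to -210 from the start site. LCN2 also held a C/EBP match at -143 to -136 (33.6% of promoters) and an AP-1 match at -52 to -46 (6.6% of promoters). CFB held a STAT match at -92 to -84 (6.78% of promoters) and a TATAAA box at -30 to -25 (11.1% of promoters). These are matches of letters in one window and not measured binding sites.

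The DU145 values were treated as FPKM, fragments scaled by transcript length and library size, although the table names no unit, and they summed to between 470857 and 485479 in shCON and between 448901 and 570790 in shPAX6. The shPAX6 libraries were less alike (mean Pearson r across features with the other libraries of their group 0.95 to 0.972) than the shCON libraries (0.986 to 0.987), and each correlated slightly more with the shCON libraries (0.954 to 0.974) than with its own group. Library 1 of shPAX6 had the fewest features at 0.5 FPKM or more (13048). PAX6 itself was at 0.839, 1.23 and 1.57 FPKM in shCON and at 0.0153, 0.274 and 0.0778 FPKM in shPAX6 (adjusted p = 0.0539 by limma). In LNCaP, 20468001 and 17945722 counts were assigned to genes in the untreated and the ENZ library, of which 5 short noncoding RNAs took 18.1% and 19.0%, and PAX6 had 11 and 4 counts. Of 15 markers of prostate epithelial lines, 14 and 13 were above 0 in the LNCaP libraries and 7 to 9 in DU145, where KRT8, KRT18, KRT19 and VIM were high and FOLH1, HOXB13 and TMPRSS2 were listed at 0 in the 6 libraries.

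The change with PAX6 knockdown was a log2 difference of FPKM + 0.1 between the 3 shPAX6 and the 3 shCON libraries, fitted with limma for the 13574 features whose mean reached 0.5 FPKM. Of the 9 members, 6 passed this filter (SAA1, LCN2, C3, CFB, SLPI and PDZK1IP1). In all 6 the 3 shPAX6 libraries lay below the 3 shCON libraries, which was so for 20% of all features tested. SAA1 and CFB, 2 of the 6, averaged under 0.5 FPKM in shPAX6 and passed the filter only through shCON, so that they had to differ, and these counts describe the 6 genes and nothing is read from them. In these bulk libraries fewer cells that express a gene and less of its RNA per cell cannot be told apart. The median log2 difference of the 6 members was -2.11 and that of all features was -0.12. With a library left out, it stayed between -2.38 and -1.76.

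Of the acute phase apolipoproteins, SAA1 (ENSG00000173432, GRCh37 chr11:18287807-18291524, plus strand) was at 2.72, 1.94 and 2.94 FPKM in the shCON libraries and at 0, 0.135 and 0 FPKM in the shPAX6 libraries. The groups did not overlap, and SAA1 was listed at 0 in 2 of the 3 knockdown libraries. Its level was 2.53 ± 0.526 FPKM in shCON and 0.0449 ± 0.0777 FPKM in shPAX6 (SD, n = 3 each), a log2 difference of -4.29 (SE 0.42). The size of this difference depended on the value added before taking logs, with -1.75 when 1 was added and -6.68 when 0.01 was added.

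SAA2 (ENSG00000134339, GRCh37 chr11:18260770-18270215, minus strand) was at 0.0574, 0.452 and 0.589 FPKM in shCON and at 0, 0.0960 and 0 FPKM in shPAX6, below the filter. The knockdown library at 0.0960 FPKM lay above the lowest shCON library, so the groups overlapped. SAA1 and SAA2 lie 17591 bases apart in opposite orientation, and their coding sequences of 369 bases each are 97.0% identical with a longest shared run of 186 bases. Reads from one can therefore be counted for the other, and the split of the signal between the pair is uncertain. SAA2 also overlaps the readthrough gene SAA2-SAA4 on the same strand.

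LCN2 (ENSG00000148346, GRCh37 chr9:130911350-130915732, plus strand), the siderophore-binding lipocalin whose promoter is printed above, was at 2.82, 4.66 and 3.02 FPKM in shCON. In shPAX6 it was at 1.86, 1.20 and 2.10 FPKM. The highest knockdown library lay under the lowest control library, and LCN2 had the smallest difference of the 6 members in the fit. The group levels were 3.50 ± 1.01 and 1.72 ± 0.465 FPKM (SD, n = 3 each), a log2 difference of -0.99 (SE 0.30). CP (ENSG00000047457, GRCh37 chr3:148880197-148939616, minus strand), which handles iron through its copper centres, did not exceed 0.0615 FPKM in any DU145 library. It was the only member whose mean was higher in shPAX6, but at 0, 0.0103 and 0.0177 FPKM against 0.0615, 0.0439 and 0.0124 FPKM the groups overlapped near 0.

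The complement members were both lower in the knockdown libraries. C3 (ENSG00000125730, GRCh37 chr19:6677715-6730573, minus strand) was at 1.40, 1.15 and 1.97 FPKM in shCON and at 0.422, 0.593 and 0.541 FPKM in shPAX6. The knockdown libraries were close to each other and clear of the controls, with levels of 1.51 ± 0.419 and 0.519 ± 0.0874 FPKM (SD, n = 3 each) and a log2 difference of -1.35 (SE 0.29). CFB (ENSG00000243649, GRCh37 chr6:31913427-31919863, plus strand) was at 1.50, 1.18 and 1.67 FPKM in shCON and at 0.229, 0.715 and 0 FPKM in shPAX6. The knockdown libraries were scattered, with 1 listed at 0, and all lay below the controls. The CFB levels were 1.45 ± 0.247 and 0.315 ± 0.365 FPKM (SD, n = 3 each), a log2 difference of -2.36 (SE 0.70) that became -0.93 with 1 added before taking logs and -3.59 with 0.01 added. CFB overlaps the end of C2 and a C2-CFB readthrough gene on the same strand.

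Of the elastase inhibitors, SLPI (ENSG00000124107, GRCh37 chr20:43880880-43883205, minus strand) was at 3.55, 3.73 and 2.75 FPKM in shCON and at 1.67, 0.343 and 0.953 FPKM in shPAX6. The control libraries lay close together and the knockdown libraries ranged widely beneath them. The SLPI levels were 3.34 ± 0.522 and 0.989 ± 0.665 FPKM (SD, n = 3 each), a log2 difference of -1.86 (SE 0.48). PI3 (ENSG00000124102, GRCh37 chr20:43803543-43805185, plus strand), 75694 bases from SLPI in the WAP gene cluster, was listed at 0 in 5 of the 6 DU145 libraries and at 0.173 FPKM in shCON library 3.

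PDZK1IP1 (ENSG00000162366, GRCh37 chr1:47649254-47656716, minus strand), the membrane partner of PDZK1, had the highest DU145 level of the 9 genes, at 7.84, 6.67 and 7.59 FPKM in shCON. In shPAX6 it was at 1.70, 0.489 and 0.769 FPKM. The gap between the groups was several times the range of either group. Its levels were 7.37 ± 0.620 and 0.986 ± 0.635 FPKM (SD, n = 3 each), a log2 difference of -2.94 (SE 0.39).

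**Figure D1:**
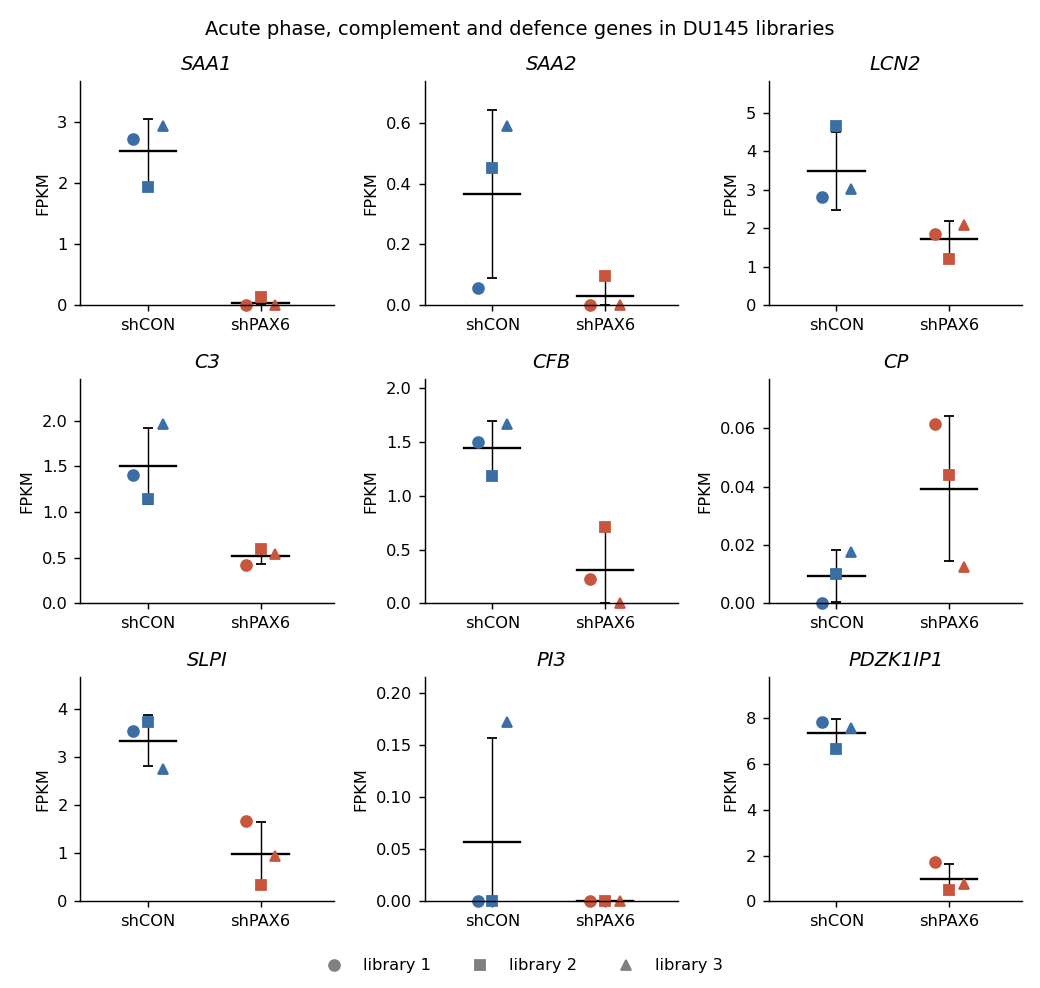
FPKM of the 9 genes in the 3 shCON and 3 shPAX6 libraries of DU145, 1 panel a gene with its own vertical axis, where points are libraries, horizontal lines are means and bars are the SD (n = 3), cut at 0. SAA1, LCN2, C3, CFB, SLPI and PDZK1IP1 are lower in every shPAX6 library, PDZK1IP1 by the widest margin in FPKM (7.37 against 0.986 FPKM on average), and SAA2, CP and PI3 lie near 0.

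Other values moved with the groups. Across the 12009 tested features with a known GC content, the log2 difference fell with GC content (rank correlation across genes, Spearman rho -0.36; genes are not replicates), and the transcripts of the 6 members in the fit are 52.2% to 58.7% GC. After a loess correction for GC content in each library the log2 differences were -4.00 for SAA1, -2.62 for PDZK1IP1, -2.12 for CFB, -1.64 for SLPI, -1.06 for C3 and -0.69 for LCN2. The summed FPKM of 16 leukocyte markers was 38.1 to 40.9 in shCON, where 6 or 7 of the 16 were above 0, and 25.3 to 27.4 in shPAX6, where 4 to 7 were. CD68, a lysosomal protein that is not restricted to leukocytes, made up 35.8 to 38.6 FPKM of the shCON sums and 24.3 to 26.2 FPKM of the shPAX6 sums, and PTPRC, CD3E and MPO were listed at 0 in the 6 libraries. The summed FPKM of 14 hepatocyte markers was 0.435 to 0.568 in shCON and 0.649 to 1.60 in shPAX6, and that of 12 fibroblast and endothelial markers was 1.42 to 2.63 and 1.54 to 2.33. The part of these marker genes in the results was not tested.

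In LNCaP, counts were scaled to CPM, counts scaled to the library total, and the ENZ library was compared with the untreated one as a log2 ratio of CPM + 0.1. With 1 library per arm no difference has a replicate check, and the 95% intervals are exact, rest on the counts alone and do not cover differences between cultures. Of the 9 members, 6 were higher in LNCaP-ENZ (LCN2, C3, CFB, CP, SLPI and PDZK1IP1), and 3 of these, C3, CFB and CP, were past 2-fold. Another 2, SAA1 and SAA2, were past 2-fold lower on 13 counts or fewer. Of the 14767 genes averaging 1 CPM or more, 1.84% were past 2-fold higher and 9.57% past 2-fold lower (11.4% in either direction). Only 7 of the members averaged 1 CPM or more, all but SAA1 and SAA2. C3 reached that level only through LNCaP-ENZ, so that it had to differ, and nothing is read from these counts. The median log2 ratio was 0.93 for the 9 members and -0.15 for the 14767 genes.

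The complement pair was at low levels in untreated cells. C3 went from 3 counts in LNCaP to 60 in LNCaP-ENZ, or 0.147 to 3.34 CPM, a ratio of 22.8 (95% interval 7.44 to 114) and a log2 ratio of 3.80 that became 1.92 with 1 CPM added. The untreated count of 3 is at the limit that a count of 0 allows, so the size of this ratio is poorly fixed by the counts. CFB went from 75 to 292 counts, or 3.66 to 16.3 CPM, a ratio of 4.44 (3.43 to 5.80). Both genes were thus higher in the enzalutamide library by more than counting error. CP, the ferroxidase that was near 0 in DU145, went from 126 to 389 counts, or 6.16 to 21.7 CPM, a ratio of 3.52 (2.87 to 4.34), and it overlaps HPS3 on the opposite strand.

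LCN2 and SLPI were among the members with the highest counts in LNCaP and lay just under the 2-fold line. LCN2 went from 1162 to 1969 counts, or 56.8 to 109.7 CPM, a ratio of 1.93 (1.80 to 2.08). SLPI went from 612 to 1027 counts, or 29.9 to 57.2 CPM, a ratio of 1.91 (1.73 to 2.12). CP, at 3.52, is the nearest member past that line, and with edgeR's TMM factors LCN2 and SLPI also passed it, at log2 ratios of 1.10 and 1.08. PDZK1IP1, the member with the highest level in DU145, went from 1019 to 1090 counts, or 49.8 to 60.7 CPM, a ratio of 1.22 (1.12 to 1.33).

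PI3, the elastase inhibitor listed at 0 in most DU145 libraries, had 326 counts in LNCaP and 266 in LNCaP-ENZ, or 15.9 and 14.8 CPM. Its ratio of 0.931 (0.789 to 1.10) was within counting error, and the log2 ratio of -0.10 turned to 0.04 under TMM scaling. SAA1 had 13 and 4 counts (0.635 and 0.223 CPM), a ratio of 0.351 (0.0834 to 1.14). SAA2 had 8 and 2 counts (0.391 and 0.111 CPM), a ratio of 0.285 (0.0295 to 1.43). Both intervals include 1 and both genes have a mean CPM under 1, so for either gene alone no difference was detectable at this depth. Summed over the pair, since reads may be shared, there were 21 and 6 counts, a ratio of 0.326 (95% interval 0.108 to 0.835), a sum taken after the values had been seen. Of 16 leukocyte markers, 10 were above 0 in each LNCaP library, with a summed level of 16.9 TPM in both.

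**Figure D2:**
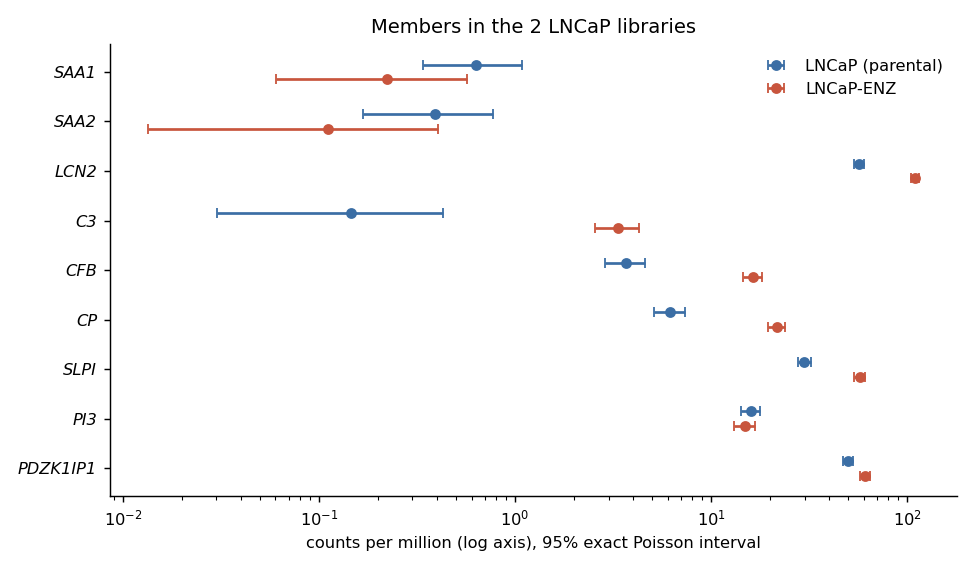
CPM of the 9 genes in the untreated LNCaP and the LNCaP-ENZ library (1 library each) on a logarithmic axis, with exact 95% Poisson intervals that cover counting error only. C3, CFB and CP lie further right in LNCaP-ENZ with intervals well apart, LCN2 and SLPI less so, and the wide intervals of SAA1 and SAA2 overlap.

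**Figure D3:**
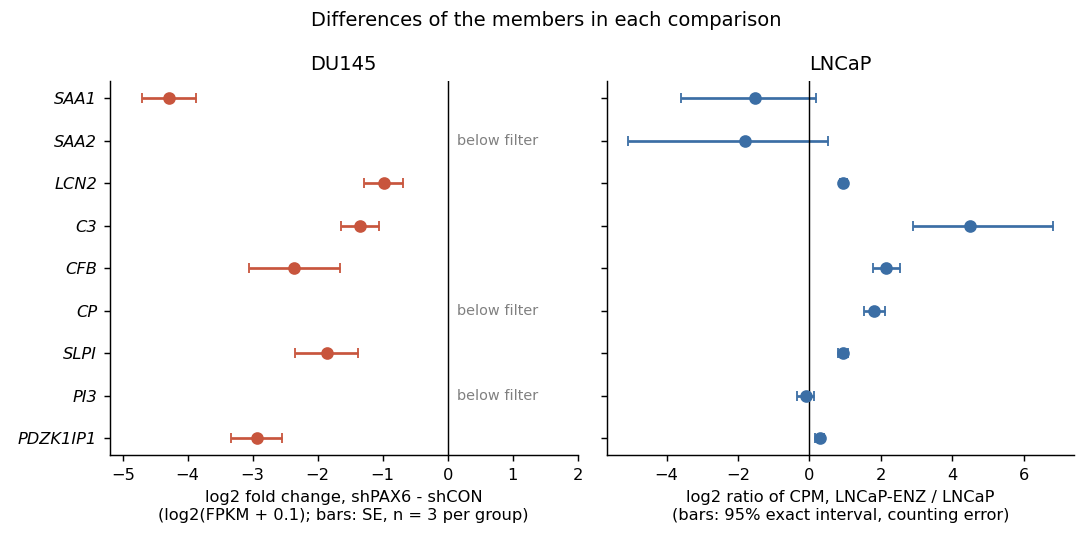
Log2 difference between shPAX6 and shCON in DU145 (FPKM + 0.1, bars are the standard error of the limma fit, n = 3 each) and plain log2 ratio of CPM of LNCaP-ENZ to LNCaP with nothing added (bars are exact 95% intervals of counting error) for the 9 genes. The 6 genes fitted in DU145 lie between -4.29 and -0.99, whereas C3, CFB and CP lie at 4.51, 2.15 and 1.82 in LNCaP.

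Lower in every shPAX6 library of DU145 and higher in the LNCaP-ENZ library were 5 of the members, C3, CFB, LCN2, SLPI and PDZK1IP1. The share of all genes that meet both conditions was not computed, so nothing is read from this count. Their order by size differed between the tables. C3 had the largest ratio in LNCaP and the fifth largest drop in DU145, and PDZK1IP1 had the smallest of these 5 ratios in LNCaP (log2 0.29) and the largest of these 5 drops in DU145 (log2 -2.94). SAA1, with the largest drop in DU145, was lower in the LNCaP-ENZ library too, within the counting error of SAA1 alone. PAX6 had lower values in shPAX6 and in LNCaP-ENZ, the latter on 11 and 4 counts (ratio 0.415, 95% interval 0.0963 to 1.40).

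The members also stood at different levels in these lines. The tables were scaled separately, so each gene was placed by its percentile within its own library among 18687 protein-coding symbols present in both tables, using FPKM in DU145 and TPM in LNCaP, both values per length. Between 18.5% and 26% of these symbols were listed at 0 in a library. LCN2 was at percentiles 96.4 and 98.3 in LNCaP and LNCaP-ENZ and at 51.5 to 59.1 in shCON. SLPI was at 94.9 and 97.5 against 50.8 to 56. PDZK1IP1 was at 95.6 and 96.3 against 64.1 to 65.6. These 3 genes were thus among the more abundant transcripts of LNCaP and in the middle of the shCON range. PI3 stood furthest apart, at 90.3 and 89.5 in LNCaP and listed at 0 in most DU145 libraries.

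CP was at percentiles 44 and 62.2 in LNCaP and at most 30 in any DU145 library. For C3 and SAA1 the order was the other way round in untreated cells. C3 was at 22.1 in LNCaP, 41.5 in LNCaP-ENZ and 43.4 to 47.2 in shCON, so that the LNCaP-ENZ library came near the DU145 control libraries. SAA1 was at 41.7 and 36.5 in the LNCaP libraries and at 48.4 to 51.7 in shCON. CFB was at 45.3 in LNCaP, within its range of 43.7 to 45.6 in shCON, and at 68.8 in LNCaP-ENZ. In shPAX6, LCN2 at 43.3 to 51.8 and C3 at 38.9 to 39.2 moved by few percentile points, while SAA1 and CFB dropped to being listed at 0 in 2 and 1 of the libraries. By percentile the LCN2 groups overlapped, with shCON library 1 at 51.5 and shPAX6 library 1 at 51.8, although they did not overlap in FPKM.

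**Figure D4:**
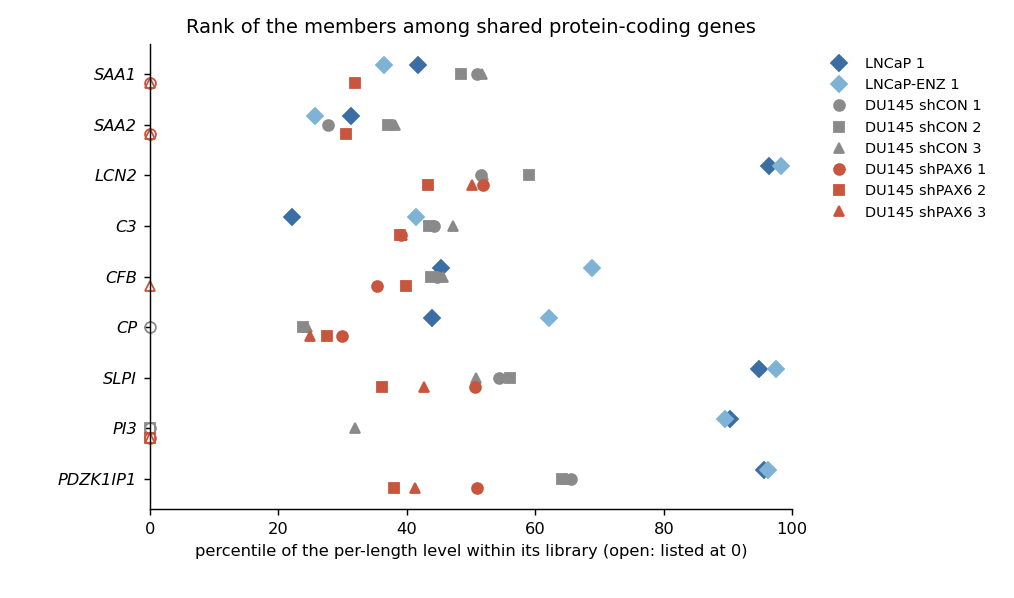
Percentile of each of the 9 genes within each library among 18687 protein-coding symbols, with the 2 LNCaP and the 6 DU145 libraries as separate points and open symbols at 0 for genes listed at 0. LCN2, SLPI, PI3 and PDZK1IP1 lie above percentile 89 in LNCaP and at or below 65.6 in DU145.

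To see the members among their pathways, 265 other genes in 6 lists were read from the same fits. The lists were also drawn up with earlier results of these data known, so their counts are no independent evidence. In DU145, 115 were tested and 4 passed the limma test with Benjamini-Hochberg adjustment over all features (3 lower, 1 higher; 3.48% against 1.2% of all features, or 1.02% lower and 0.177% higher), and 41 had an unadjusted p under 0.05 (30 lower, 11 higher), which was so for 18.3% of all features. The 1 higher call, BMP6, passed the filter only through shPAX6, so that it had to differ. The median log2 difference of the 115 tested genes was -0.20 against -0.12 for all features. These 4 calls were lost when shCON library 1, 2 or 3 or shPAX6 library 3 was left out (0 calls), and 24 or 18 genes passed without shPAX6 library 1 or 2. In LNCaP, 116 averaged 1 CPM or more, of which 4 were past 2-fold higher and 9 past 2-fold lower, with a median log2 ratio of 0.01. Of all 14767 genes at that level, 1.84% were past 2-fold higher and 9.57% lower, with a median of -0.15. These shares also stand beside the LNCaP counts of each list below. At least VTN, CD55, IL17C and TGM3 reached that level only through the library where they were higher, so that they had to differ. Nothing is read from these counts.

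Among complement components and regulators, 15 of 50 were tested in DU145, of which 8 were lower and 7 higher with a median of -0.55. C2, which forms the convertase of the classical pathway and is a paralog of CFB, fell from 2.13 ± 0.242 to 0.737 ± 0.119 FPKM (SD, n = 3 each; log2 difference -1.42, adjusted p = 0.0435 by limma), and its annotation overlaps that of CFB. CLU, a chaperone that restrains the membrane attack complex, was at 67.3 ± 3.11 and 122 ± 24.4 FPKM (SD, n = 3 each; log2 difference 0.84, adjusted p = 0.0642 by limma). The complement protease CFD had a log2 difference of -0.79, and the membrane regulators CD46, CD55 and CD59 had -0.60, 0.54 and 0.56, without passing the test. The plasma protease CFI and the C3a receptor C3AR1 were below the filter. In LNCaP, 1 of 15 was past 2-fold in each direction. VTN, an inhibitor of the terminal complex, went from 14 to 27 counts, and CD55, which dissociates the C3 convertases, went from 49 to 4 counts (ratio 0.0931, 95% interval 0.0244 to 0.254). VTN averaged 1 CPM or more only through LNCaP-ENZ and CD55 only through untreated LNCaP. Both thus had to differ, and nothing is read from them. CD46 went from 1621 to 1027 counts, CD59 from 566 to 680 and CFD from 111 to 90, while CFI had 0 counts in both libraries and C3AR1 had 1 and 0.

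Among other acute phase proteins, 6 of 36 were tested in DU145 and 0 passed by limma, with 3 at an unadjusted p under 0.05 (1 lower, 2 higher). SERPINA1, the plasma inhibitor of neutrophil elastase, was at 31.3 ± 1.04 and 16.6 ± 3.24 FPKM (SD, n = 3 each; log2 difference -0.93, adjusted p = 0.0551 by limma). FGB, the fibrinogen beta chain, was at 0.186 ± 0.0438 and 0.855 ± 0.346 FPKM (SD, n = 3 each; log2 difference 1.69, adjusted p = 0.0744 by limma). It averaged under 0.5 FPKM in shCON and passed the filter only through shPAX6, so that it had to differ. The list did not lean one way, with 2 lower and 4 higher. In LNCaP, VWF, the carrier of clotting factor VIII, went from 345 to 27 counts (ratio 0.0893, 95% interval 0.0580 to 0.132), and 0 of the 6 genes averaging 1 CPM or more were past 2-fold higher. AGT, the angiotensin precursor, had 110 and 142 counts.

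Among epithelial antimicrobial and WAP family proteins, 10 of 47 were tested in DU145, 6 lower and 4 higher. S100A9, a subunit of the antimicrobial protein calprotectin, fell from 4.32, 5.06 and 5.20 FPKM in shCON to 0.802, 0.507 and 0.375 FPKM in shPAX6 (log2 difference -2.95, adjusted p = 0.00962 by limma). It was the largest drop of the 115 tested genes, and its groups lay far apart. S100A8, of the same list, was listed at 0 in the 6 libraries, so nothing is read about calprotectin itself. WFDC2, a WAP protein of the same cluster as SLPI and PI3, had a log2 difference of -0.53, and ANG, an antimicrobial ribonuclease, was at 3.18 ± 0.130 and 3.98 ± 1.51 FPKM (SD, n = 3 each). In LNCaP, PIGR, which carries dimeric immunoglobulin A across epithelia, went from 1308 to 16738 counts (ratio 14.6, 95% interval 13.8 to 15.5), the only 1 of 9 past 2-fold. ANG went from 283 to 124 counts, and WFDC2 had 0 counts in both libraries.

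Among NF-kappaB, IL-1, IL-6 and IL-17 signalling genes, 47 of 62 were tested in DU145 and 0 passed by limma, although 39 were lower and 8 higher, with a median of -0.33 against 62.9% lower and -0.12 for all features. At an unadjusted p under 0.05 there were 13 lower and 1 higher, beside the 18.3% of all features given above. LTB, a cytokine that signals to the noncanonical NF-kappaB pathway, was at 14.3 ± 3.10 and 5.99 ± 2.59 FPKM (SD, n = 3 each; log2 difference -1.31, adjusted p = 0.104 by limma), and BIRC3, an inhibitor of apoptosis and NF-kappaB target, was at 8.59 ± 0.811 and 17.4 ± 7.54 FPKM (SD, n = 3 each; log2 difference 0.93, adjusted p = 0.172 by limma). NFKBIZ, the nuclear cofactor that NF-kappaB needs at LCN2, had a log2 difference of -0.88 (adjusted p = 0.33 by limma). In LNCaP, 1 of 49 was past 2-fold higher and 4 lower. TLR2, the receptor for bacterial lipoproteins, went from 23 to 64 counts. IL17C, an epithelial cytokine, went from 64 to 14 counts and BIRC3 from 235 to 78, and NFKBIZ had 277 and 206 counts. IL17C averaged 1 CPM or more only through untreated LNCaP, so that it had to differ, and nothing is read from its change.

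Among iron and copper handling genes, 27 of 42 were tested in DU145, 12 lower and 15 higher with a median of 0.02. BMP6, the ligand that induces hepcidin when iron is high, was at 0.302 ± 0.0645 and 1.26 ± 0.301 FPKM (SD, n = 3 each; log2 difference 1.75, adjusted p = 0.0444 by limma), the only call in this list. BMP6 averaged under 0.5 FPKM in shCON and passed the filter only through shPAX6, so that it had to differ, and nothing is read from this call. With 0.01 added before taking logs its adjusted p was 0.0537 by limma. ATP7B, a copper transporter that loads CP, was at 2.08 ± 0.234 and 1.48 ± 0.828 FPKM (SD, n = 3 each) with overlapping groups, and SLC22A17, a receptor of LCN2, had a log2 difference of 0.02. HEPH, the membrane homolog of CP, was listed at 0 in the 6 libraries. In LNCaP, 1 of 27 was past 2-fold higher and 2 lower. FTH1, the ferritin heavy chain, went from 33084 to 61336 counts (ratio 2.11, 95% interval 2.09 to 2.14), BMP6 from 192 to 58 and ATP7A, the other copper pump, from 597 to 234. SLC22A17 had 363 and 381 counts, and HEPH had 3 and 4.

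Among receptors, binding partners and target proteases of the members, 14 of 40 were tested in DU145, 11 lower and 3 higher with a median of -0.30. TGM2, a transglutaminase of the family that crosslinks elafin to matrix, fell from 278 ± 21.0 to 120 ± 31.7 FPKM (SD, n = 3 each; log2 difference -1.25, adjusted p = 0.0444 by limma). After the GC correction it no longer passed, with a log2 difference of -0.99 and an adjusted p of 0.0596 by limma. PDZK1, the scaffold that gives PDZK1IP1 its name, was below the filter in DU145 and had 1 and 4 counts in LNCaP. FPR2, a receptor of serum amyloid A, was listed at 0 in the DU145 libraries and had 0 counts in both LNCaP libraries. In LNCaP, 0 of 14 were past 2-fold higher and 2 were lower, CD55 as above and TGM3, another transglutaminase, which went from 53 to 10 counts, while SLC9A3R1, a scaffold related to PDZK1, had 2210 and 2958. Like CD55, TGM3 averaged 1 CPM or more only through untreated LNCaP, so that it had to differ, and nothing is read from either.

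**Figure D5:**
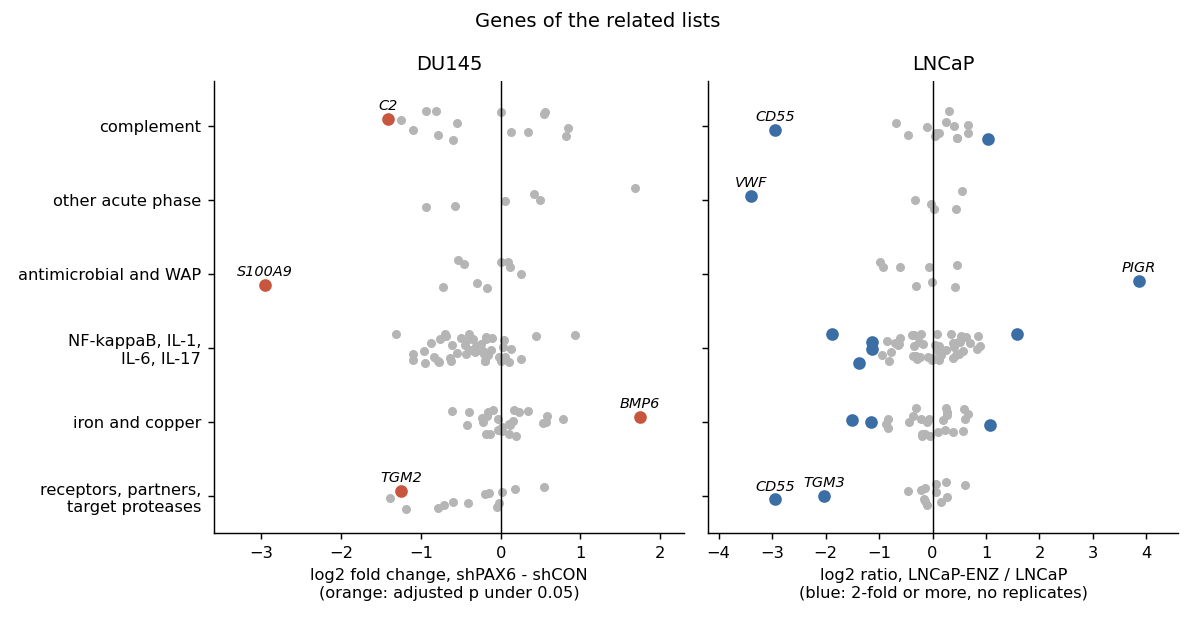
Log2 difference of shPAX6 against shCON in DU145 (left, features averaging 0.5 FPKM or more) and log2 ratio of LNCaP-ENZ to LNCaP (right, genes averaging 1 CPM or more) for the genes of the 6 lists, 1 point a gene, spread vertically for legibility. Orange points passed the limma test (C2, S100A9, BMP6 and TGM2), and blue points were past 2-fold with no replicates (13 genes, among them PIGR at 3.87 and VWF at -3.40), with CD55 drawn in both of its lists.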

How the data were processed

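RNA-seq values of 2 LNCaP and 6 DU145 libraries were analysed, grouped by the condition in the sample labels; the 6 ATAC-seq samples were not used here. According to the study's methods, the authors used HISAT2 for alignment to GRCh37 and StringTie for quantification. For LNCaP the authors deposited raw counts and TPM per gene, with the gene length used for the TPM. For DU145 the deposited values were taken as FPKM. Counting is not stated to use strand, so overlapping genes may share reads. The methods state 3 replicates for each line, but the labels give 1 LNCaP library per arm.

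The 9 genes and the 6 gene lists were chosen with earlier results of these data known. All features were fitted together in limma 3.58.1 (R 4.3.3; lmFit, then eBayes with trend) using log2(FPKM + 0.1) at a mean of at least 0.5 FPKM, with two-sided tests, Benjamini-Hochberg adjustment and a threshold of 0.05, after a check on simulated data. LNCaP counts were divided by library totals (20468001 and 17945722), with a pseudocount of 0.1 CPM and exact Clopper-Pearson and Poisson intervals; a count of 0 allows up to 3 counts, or 0.147 and 0.167 CPM. FPKM give no depth, so DU145 values carry no counting interval. Named genes are the 9 members, their direct partners, PAX6 and, per list and direction, the 2 largest changes past the threshold or, with none, the largest value; not every gene covered by this rule is reported here. Symbols listed more than once (15, among them SOD2) were left out of the list counts. GC content and GRCh37 positions came from the annotation, and promoters from RefSeq (GRCh38.p14). Alternatives were other pseudocounts, filters and scalings, eBayes without a trend, a GC correction (loess, span 0.5, degree 2), the replicate block and each DU145 library left out.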

Additional observations from a re-analysis of the deposited data

How the results depend on the processing

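SAA1, LCN2, C3, SLPI and PDZK1IP1 stayed lower in shPAX6 under each alternative run, as did CFB under all but a mean FPKM of at least 1, which it did not reach. The median log2 difference of the 6 members, -2.11, became -1.05 with a pseudocount of 1, -2.54 with 0.01, -1.86 over 5 members at a mean FPKM of at least 1, -1.64 over 9 members with no filter, -1.83 with quantile normalization, -1.88 with the GC correction, and ran from -2.38 to -1.76 with a library left out. The fit reported called 163 features (24 higher, 139 lower). Refits called 108 with no filter (20572 tested), 100 with median centring (28 higher, 72 lower), 222 with the GC correction (100 higher, 122 lower) and 236 with quantile normalization (74 higher, 162 lower). With a library left out the count ran from 0 to 924, and it was 0, 5 and 0 without shCON 1, 2 and 3 and 924, 899 and 10 without shPAX6 1, 2 and 3. The number of related genes called, 4 as reported, was 1 with no filter, 9 with quantile normalization, 8 with the GC correction (neither including TGM2) and 0 to 24 with a library left out. The cause of these shifts was not tested. In LNCaP the genes past 2-fold went from 1684 to 1054 with a pseudocount of 1, 874 at a mean CPM of at least 5 and 6120 with no filter, the related genes from 13 to 8 and 45 under these filters, and the median of the members from 0.93 to 1.09 with the median ratio of expressed genes set to 0.

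Libraries with the same number showed no pairing, with deviations from the group means that correlated at -0.17, -0.37 and 0.05. With 3 libraries per group this cannot exclude that they were paired. With a block for the replicate number, limma called 0 features (1568 at an unadjusted p under 0.05) and 0 related genes (32 at an unadjusted p under 0.05). With the block and the GC correction together it called 7 features and 0 related genes (36 at an unadjusted p under 0.05), and the median of the members was -1.88. In DU145 the depth is unknown, and in LNCaP SAA1, SAA2 and untreated C3 rest on 13 counts or fewer.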

Other observations

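BMP6 and BIRC3, which were among the genes named above in both tables, lay on opposite sides of 0 in them. BMP6 had a log2 difference of 1.75 in DU145 shPAX6 cells and a log2 ratio of -1.51 in LNCaP-ENZ cells, and BIRC3 had 0.93 and -1.38. C2 lay on the same side, with -1.42 in DU145 and 27 against 6 counts in LNCaP, where its mean was under 1 CPM. Not every gene named in both tables is compared here. CDH1, the epithelial cadherin, was at 6.27, 5.23 and 6.91 FPKM in shCON and at 0.654, 1.56 and 1.57 FPKM in shPAX6 (log2 difference -2.28, adjusted p = 0.0334 by limma, n = 3 each). Of 15 markers of prostate epithelial lines 7 were tested, and CDH1 was the only call, beside 1.2% of all features. These 7 did not lean one way, with 3 lower and 4 higher and a median log2 difference of 0.03.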
